A study of Mus musculus with 11 samples.

Results

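Trim28, Setdb1 and 8 genes that work with them (Zfp57, Zfp809, Atrx, Daxx, Atf7ip, Cbx5, Ehmt2 and Kdm1a) make up a set of factors that silences retroelements and imprinted alleles in mouse embryonic stem (ES) cells. The 10 genes were taken by symbol from a table of 24016 genes, and every one of them was found and measured in all 11 libraries. Their mRNA levels were followed to ask whether the silencing factors change when DNA methyltransferases are lost and when one of them is put back. All libraries came from ES cells of strain 129S4/SvJae, grown in serum and LIF on irradiated mouse embryonic fibroblasts. J1 was the wild type (WT). In TKO all 3 methyltransferases (Dnmt1, Dnmt3a, Dnmt3b) were knocked out, in DKO only Dnmt3a and Dnmt3b, so that Dnmt1 remained. In the add-back lines either Dnmt3a1, Dnmt3a2 (the long and short isoforms of Dnmt3a) or Dnmt3b1 had been restored in TKO or in DKO. Of the 9 groups, those of Dnmt3a1 and Dnmt3a2 in TKO held 2 libraries and the remaining 7 held 1. The labels do not say whether libraries of 1 line came from separate cultures, so p-values measure the spread between these libraries. Each genotype is known from 1 named line, so a feature of the line cannot be told apart from its genotype.

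Silencing of retroelements starts with KRAB zinc-finger proteins, which read a DNA sequence in the element and bind the corepressor Trim28 (KAP1). Trim28 brings in Setdb1, which trimethylates lysine 9 of histone H3, and HP1 proteins bind that mark. In ES cells this histone pathway silences many endogenous retroviruses even where DNA methylation is low, and at imprinting control regions Zfp57 and Trim28 help to keep methylation on 1 parental allele. Levels are given as RPKM (reads per kilobase of transcript, scaled to the reads of the library), so that genes may be compared per length. Differences are given as log2(RPKM + 0.5), with the standard error (SE) of the limma model fitted over 14229 genes.

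The spacing of the deposited values gave an estimated depth of 21.8 to 32.7 M reads per library. At that depth the member with the fewest reads, Zfp809, rested on 323 to 1274 reads, and Trim28 on 29145 to 62412. Dnmt1 was at 6.73 to 12.4 RPKM in the TKO family (TKO and its add-back lines) and at 55.9 to 74.5 in the DKO family, against 71.0 in WT. Dnmt3a was at 4.24 RPKM in TKO and 3.63 in DKO against 22.7 in WT. Dnmt3b was at 5.68 RPKM in DKO but at 45.3 in the library labelled TKO, above the 25.0 of WT. Gene totals do not show whether these transcripts hold the deleted part, so the loss of Dnmt3b in TKO rests on the label, as does every comparison with that line. All 10 ES cell markers were at 1 RPKM or more in every library. Their sum was lowest in TKO+Dnmt3b1 and DKO+Dnmt3b1, at 2100 and 2601 RPKM, against 2999 to 4060 elsewhere. The same 2 libraries held the most RNA of 20 fibroblast markers, 2658 and 1933 RPKM against 221 to 1052 elsewhere, and of 13 macrophage markers, 314 and 287 against 12.4 to 114. In bulk RNA, fewer cells of a type and less RNA per cell cannot be told apart.

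The libraries also fell on either side of a split that no label names. It appeared as a difference between the 2 libraries of the same line, TKO+Dnmt3a2. The score used the 200 genes with the largest log2 difference between them in each direction, without the 10 silencing genes. The distance between these 2 libraries thus follows from how the score was made. On this score WT (-0.99), TKO (-0.41), DKO (-0.70), both TKO+Dnmt3a1 libraries (-0.65 and -0.67) and TKO+Dnmt3a2 replicate 2 (-0.89) lay below 0. TKO+Dnmt3a2 replicate 1 (0.72), TKO+Dnmt3b1 (1.18) and the 3 DKO add-back lines (0.54, 0.56 and 1.28) lay above 0. WT and both parent lines thus share a side, while in the DKO family the side and the presence of an enzyme cannot be told apart. Trim28, Zfp809 and Daxx were higher in every library above 0 than in every library below 0, as were 7.14% of the genes tested. The add-back differences of the 10 genes are therefore also given for the libraries below 0 alone. No DKO add-back is among those, so they show add-backs of TKO only.

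**Figure D1:**
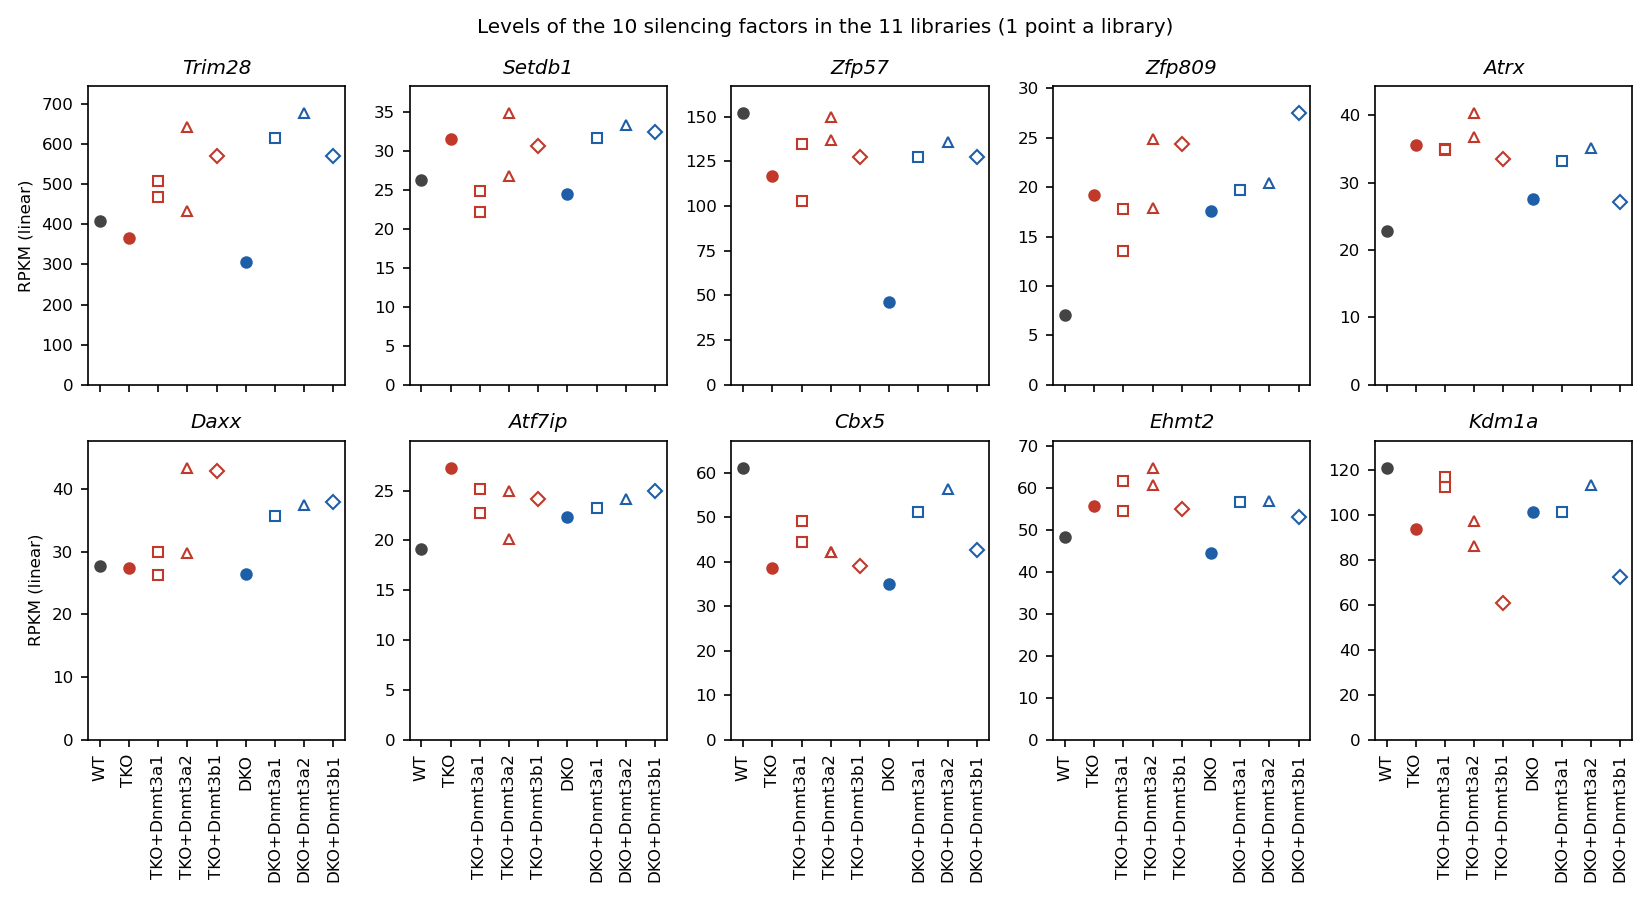
RPKM of the 10 silencing genes in each of the 11 libraries, on linear axes from 0 and with the 9 groups along the horizontal axis, with WT in grey, the TKO family in red and the DKO family in blue; filled circles are WT and parent lines, and open squares, triangles and diamonds are Dnmt3a1, Dnmt3a2 and Dnmt3b1 add-backs. Zfp809 is lowest in WT at 7.02 RPKM, Zfp57 is lowest in DKO at 46.5 RPKM, and Kdm1a is lowest in the Dnmt3b1 lines at 60.7 and 72.7 RPKM.

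No silencing gene passed the test in the mutants that had lost methyltransferases. In TKO against WT, 0 of the 10 had a limma p below 0.05 after Benjamini-Hochberg adjustment (were called), where 0.344% of all genes were called. Without adjustment, 3 members (Zfp809, Cbx5 and Atrx) and 2447 of the 14229 genes had p under 0.05. In DKO against WT the count was again 0 of 10 with 0.0% of all genes called, and 3 members (Zfp57, Zfp809 and Cbx5) and 1181 genes had an unadjusted p under 0.05. The smallest adjusted p of any gene was 0.163 in DKO and 0.0344 in TKO. The typical size of a member's difference was close to that of other genes, a median of 0.37 against 0.36 in TKO and 0.26 against 0.24 in DKO on the log2 scale. Quantile or median ratio scaling moved the median of all genes in TKO against WT from 0.13 to -0.02, so differences of that size have no firm direction. Both comparisons use the same single WT library, so their values are given side by side and are not independent. Over all 10 mutant libraries, Zfp809, Atrx and Atf7ip were above WT in every one (14.2% of genes were), and Zfp57, Cbx5 and Kdm1a were below WT in every one (10.2% of genes were).

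The KRAB zinc-finger protein Zfp809 recognises the primer-binding site of murine leukaemia viruses and related retroviruses and recruits Trim28 to it. Its level was 7.02 RPKM in WT against 19.2 in TKO and 17.6 in DKO. TKO add-back libraries read 13.5 and 17.8 RPKM with Dnmt3a1, 24.9 and 17.8 with Dnmt3a2 and 24.4 with Dnmt3b1. DKO add-back libraries read 19.7, 20.4 and 27.5 RPKM with Dnmt3a1, Dnmt3a2 and Dnmt3b1. WT was the lowest library, and all 10 mutant libraries were more than 1.5 times above it, which 1.9% of the genes tested also were. The log2 difference from WT was 1.39 ± 0.32 (SE; limma adjusted p = 0.157) in TKO and 1.26 ± 0.32 (adjusted p = 0.403) in DKO. These sizes were larger than those of 95.3% of genes in TKO and 96.8% in DKO. The 8 add-back libraries, at 13.5 to 27.5 RPKM, surrounded the 2 parents and all stayed above WT. Zfp599 overlaps Zfp809 in RefSeq, the libraries keep no strand, and Zfp599 was also above WT in 10 of 10 mutant libraries, at 3.41 to 6.60 RPKM against 2.4. How many reads of either gene belong to the other was not tested.

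Zfp57, the KRAB zinc-finger protein that holds methylation at imprinting control regions, was highest in WT, where Zfp809 was lowest. WT had 152 RPKM, TKO 117 and DKO 46.5. The TKO lines read 103 and 135 RPKM with Dnmt3a1, 150 and 137 with Dnmt3a2 and 127 with Dnmt3b1. The DKO lines with an enzyme read 128, 136 and 127 RPKM with Dnmt3a1, Dnmt3a2 and Dnmt3b1. DKO alone stood apart, since the next lowest library was more than 2-fold above it and the 3 add-back lines made from it lay within the range of the TKO family. DKO differed from WT by -1.70 ± 0.26 on the log2 scale, a 3.24-fold lower level (limma adjusted p = 0.215) and a larger difference than that of 98.6% of genes. TKO differed from WT by -0.38 ± 0.26 (adjusted p = 0.483). Against DKO its add-back lines were 2.73 to 2.92-fold higher, and against TKO its 5 add-back libraries were 0.88 to 1.29-fold. Of the genes flanking Zfp57, H2-M5 and 2410137M14Rik were also lowest in DKO, at 4.03 RPKM against 6.26 to 15.7 elsewhere and at 1.52 RPKM against 2.67 to 5.88 elsewhere. The other flanking genes looked at, Znrd1as, Mog, Gabbr1 and Olfr90, were not lowest in DKO. Znrd1as was at 11.6 RPKM in DKO and 9.14 in DKO+Dnmt3b1, and Gabbr1 at 10.7 in DKO and 10.05 in TKO+Dnmt3b1.

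Because the enzymes removed in these lines methylate CG dinucleotides, the promoter windows of the 3 genes that varied most over the libraries (Zfp809, Zfp57 and Trim28) are printed with each CG in capitals. The windows run from 250 bases before to 50 bases after the annotated start, 5′ to 3′ on the strand of the gene, from RefSeq on GRCm38.p6. They are Zfp809 at chr9:22225453-22225752 (plus strand), the most upstream of 3 starts of Zfp57 at chr17:37000913-37001212 (plus strand) and Trim28 at chr7:13023902-13024201 (plus strand).
Zfp809: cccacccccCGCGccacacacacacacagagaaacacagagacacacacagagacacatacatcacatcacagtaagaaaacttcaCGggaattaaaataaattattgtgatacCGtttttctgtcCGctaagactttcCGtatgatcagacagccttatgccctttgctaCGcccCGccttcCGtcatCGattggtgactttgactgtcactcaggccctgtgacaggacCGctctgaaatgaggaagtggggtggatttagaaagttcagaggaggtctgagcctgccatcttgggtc
Zfp57: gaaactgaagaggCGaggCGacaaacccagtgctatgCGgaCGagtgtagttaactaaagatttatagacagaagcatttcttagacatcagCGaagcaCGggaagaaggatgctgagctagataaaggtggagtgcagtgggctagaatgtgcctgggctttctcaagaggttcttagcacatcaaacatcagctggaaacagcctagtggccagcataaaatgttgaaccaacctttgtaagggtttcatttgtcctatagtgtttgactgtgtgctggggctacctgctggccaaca
Trim28: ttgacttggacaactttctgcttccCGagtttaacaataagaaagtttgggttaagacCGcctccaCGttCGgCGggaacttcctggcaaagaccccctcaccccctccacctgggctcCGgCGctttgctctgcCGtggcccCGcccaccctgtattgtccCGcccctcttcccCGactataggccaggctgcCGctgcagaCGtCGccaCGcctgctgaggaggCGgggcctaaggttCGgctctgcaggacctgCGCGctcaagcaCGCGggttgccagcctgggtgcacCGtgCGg
The motif CG, which reads the same on both strands, occurred 11 times in the Zfp809 window, 6 times in that of Zfp57 and 23 times in that of Trim28. Among 32851 promoter windows of this length the median was 7, and 41.4%, 56.4% and 21.5% held as many CG or more. The other starts of Zfp57 had 4 and 9. The windows of Daxx (32 or 33), Atf7ip (29), Kdm1a (29) and Ehmt2 (28 or 40) were richer in CG, those of Setdb1 (15) and Atrx (11) less so, and Cbx5 had 29 and 8 at its 2 starts. Methylation was not measured here, so these counts are a description of the windows.

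Trim28, the corepressor on which the zinc-finger proteins depend, was by far the most abundant member per length. WT had 409 RPKM, TKO 366 and DKO 305. With an enzyme, TKO lines read 507 and 468 RPKM with Dnmt3a1, 643 and 433 with Dnmt3a2 and 571 with Dnmt3b1. With an enzyme, DKO lines read 614, 677 and 571 RPKM with Dnmt3a1, Dnmt3a2 and Dnmt3b1. All 8 add-back libraries were above both parents and above WT, and DKO was the lowest library. The 2 libraries of TKO+Dnmt3a2 differed 1.49-fold, those of TKO+Dnmt3a1 1.08-fold. The differences of TKO and DKO from WT, -0.16 and -0.42, had limma adjusted p of 0.837 and 0.854.

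Setdb1, the H3K9 methyltransferase that Trim28 recruits, stayed within a 1.57-fold range. WT had 26.3 RPKM, TKO 31.5 and DKO 24.5. Among TKO add-backs the values were 24.8 and 22.1 RPKM with Dnmt3a1, 34.8 and 26.8 with Dnmt3a2 and 30.6 with Dnmt3b1. Among DKO add-backs they were 31.6, 33.3 and 32.5 RPKM. In the TKO family the 3 add-back libraries below 0 on the library score were all lower than TKO, while the DKO add-backs were all higher than DKO. Cers2 overlaps Setdb1 in RefSeq and was at 23.4 to 48.1 RPKM. Atf7ip (MCAF1), the partner that stabilises Setdb1 in the nucleus, had 19.2 RPKM in WT against 27.3 in TKO, 22.4 in DKO and 20.1 to 25.1 in the 8 add-back libraries. WT was its lowest library, with a log2 difference of 0.50 ± 0.24 in TKO (limma adjusted p = 0.355). Atf7ip lies on chromosome 6, where the median gene of TKO was 0.48 above WT, and with chromosome medians removed its difference was -0.02. The copy number of chromosome 6 was not measured. Setdb1 lies on chromosome 3, where that median was 0.23, and its own difference of 0.26 was 0.03 with chromosome medians removed.

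Cbx5 (HP1α) binds H3K9 methylation and had 61.0 RPKM in WT against 38.6 in TKO and 34.9 in DKO. Restored TKO lines read 49.1 and 44.3 RPKM with Dnmt3a1, 42.1 and 42.2 with Dnmt3a2 and 39.0 with Dnmt3b1. Restored DKO lines read 51.0, 56.4 and 42.7 RPKM. WT was the highest library and the parents were the 2 lowest, so every add-back library lay between its parent and WT. The log2 difference from WT was -0.66 ± 0.19 in TKO (limma adjusted p = 0.200) and -0.80 ± 0.19 in DKO (adjusted p = 0.387). Ehmt2 (G9a), which with its partner Ehmt1 dimethylates H3K9, varied 1.46-fold in all. WT had 48.3 RPKM, TKO 55.6, DKO 44.4 and the add-back libraries 53.0 to 64.7, and its differences from WT were 0.20 and -0.12 (adjusted p of 0.632 and 0.951).

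Atrx and Daxx form the complex that places histone variant H3.3 at telomeres and retroelements. Atrx, the X-linked ATPase of the pair, had 22.9 RPKM in WT against 35.6 in TKO and 27.5 in DKO. The 5 TKO add-back libraries ran from 33.6 to 40.3 RPKM with a median of 35.0, and the 3 DKO add-back libraries read 33.3, 35.1 and 27.1. WT was the lowest, and the 6 libraries of the TKO family overlapped with those of the DKO family. The log2 difference of TKO from WT was 0.62 ± 0.19 (limma adjusted p = 0.212), while the median gene of the X chromosome was 0.18 higher. With chromosome medians removed the Atrx difference was 0.39 in TKO (adjusted p = 0.366), and in DKO it was 0.05 in place of 0.26. Daxx, the H3.3 chaperone, was level in the lines without add-back, with WT at 27.8 RPKM, TKO at 27.4 and DKO at 26.4. TKO add-back libraries read 30.0 and 26.3 RPKM with Dnmt3a1, 43.4 and 29.8 with Dnmt3a2 and 43.0 with Dnmt3b1, and DKO add-back libraries 35.7, 37.5 and 38.0. The 5 libraries above 0 on the library score held the 5 highest values, and the 2 libraries of TKO+Dnmt3a2 differed 1.46-fold.

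Kdm1a (LSD1), the demethylase of H3K4 that represses the 2-cell-stage genes and their retroviral promoters, had 121 RPKM in WT against 94.1 in TKO and 102 in DKO. The restored TKO libraries had 113 and 117 RPKM with Dnmt3a1, 86.4 and 97.5 with Dnmt3a2 and 60.7 with Dnmt3b1. The restored DKO libraries had 101, 114 and 72.7 RPKM with Dnmt3a1, Dnmt3a2 and Dnmt3b1. WT was the highest and the 2 Dnmt3b1 lines the lowest. The differences from WT were -0.36 in TKO and -0.25 in DKO (limma adjusted p of 0.409 and 0.850).

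**Figure D2:**
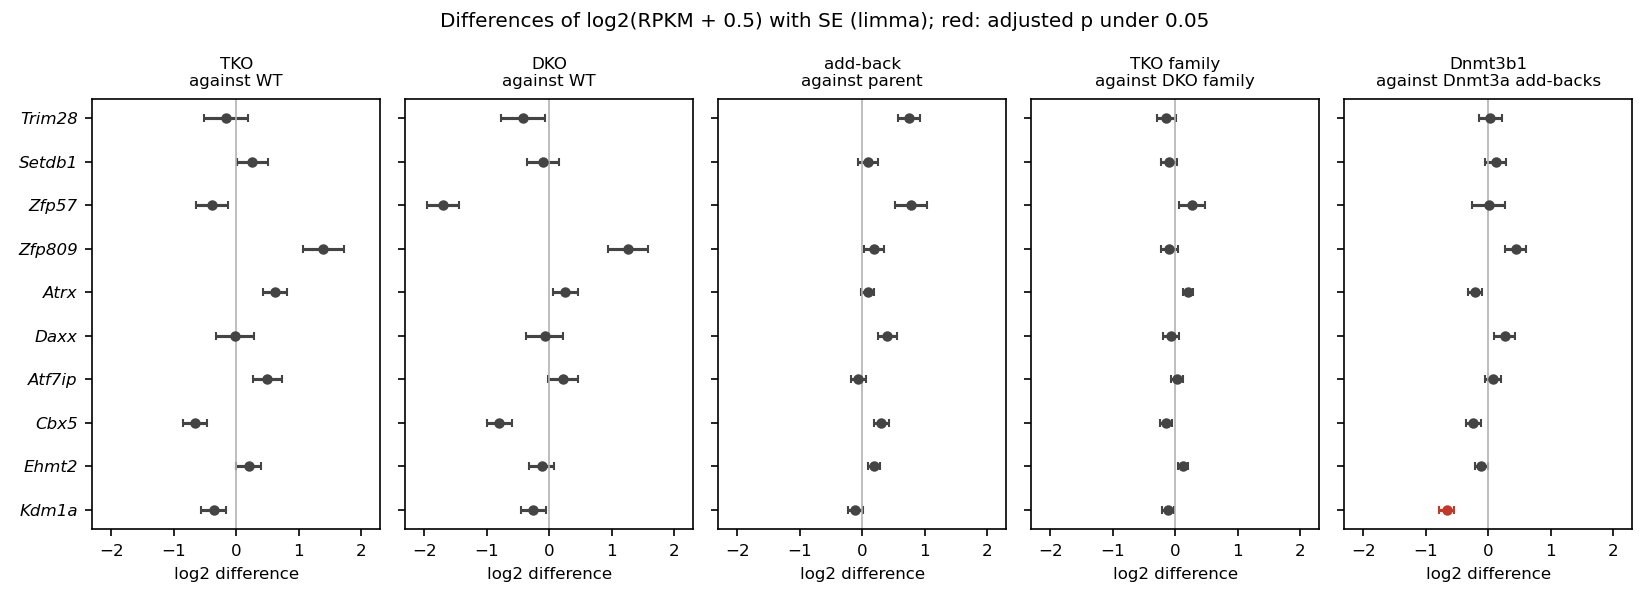
Log2 differences of log2(RPKM + 0.5) for the 10 silencing genes in each of the 5 comparisons; points are the limma estimates, bars are 1 SE, and red marks a gene called at an adjusted p under 0.05. Kdm1a in Dnmt3b1 against Dnmt3a add-backs, at -0.67, is the 1 call.

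When an enzyme was put back, Trim28 and Zfp57 showed the largest differences from the parent lines, and neither was called. Across both families 0 of 10 members passed the test by limma, against 3.93% of all genes, and 4 members and 4012 genes had an unadjusted p under 0.05. Trim28 averaged 560 RPKM in the 8 add-back libraries and 336 in the 2 parents, a log2 difference of 0.75 ± 0.18 (adjusted p = 0.0535). The ratio of an add-back library to its own parent ran from 1.18 to 1.75 in TKO and from 1.87 to 2.22 in DKO. Trim28 and Cbx5 were above their own parent in 8 of 8 libraries (8.47% of genes were), and their groups did not overlap (10.9% of genes in either direction, 4.71% with add-backs higher). Without TKO the Trim28 difference was 1.02 and without DKO 0.50, each resting on the 1 parent library left. Without TKO+Dnmt3a2 replicate 2 the Trim28 difference was 0.81 (limma adjusted p = 0.0338). With only the libraries below 0 on the library score it was 0.33 (adjusted p = 0.481), and the 3 TKO add-back libraries were 1.18 to 1.38-fold above TKO. With the side of that score as a covariate it was 0.37 (adjusted p = 0.371).

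For Zfp57 the pooled difference of 0.78 ± 0.25 (limma adjusted p = 0.0979) joined a large ratio in DKO to ratios around 1 in TKO. Without TKO it was 1.47 and without DKO 0.15, each resting on the 1 parent library left, and with only the libraries below 0 it was 0.12. Daxx differed by 0.40 ± 0.16 (adjusted p = 0.142), and by 0.08 in the libraries below 0. Cbx5 differed by 0.31 ± 0.12 (adjusted p = 0.139), and by 0.20 in the libraries below 0, by 0.50 without TKO and by 0.13 without DKO. The remaining 6 members differed by -0.11 (Kdm1a) to 0.19 (Ehmt2 and Zfp809). Of these, Setdb1 changed direction, from 0.10 over all libraries to -0.33 in those below 0. So did Zfp809 from 0.19 to -0.20 and Kdm1a from -0.11 to 0.17. In the libraries below 0 Atrx differed by 0.012, Ehmt2 by 0.14 and Atf7ip by -0.31, against 0.09, 0.19 and -0.06 over all libraries. No DKO add-back lies below 0, so these values compare 3 TKO add-back libraries with TKO, and family and side change together. For Setdb1 the mean log2 difference from the own parent was -0.19 over all TKO add-backs and 0.40 over the DKO add-backs. The part of the library split in these differences cannot be told apart from the enzyme in the DKO family.

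**Figure D3:**
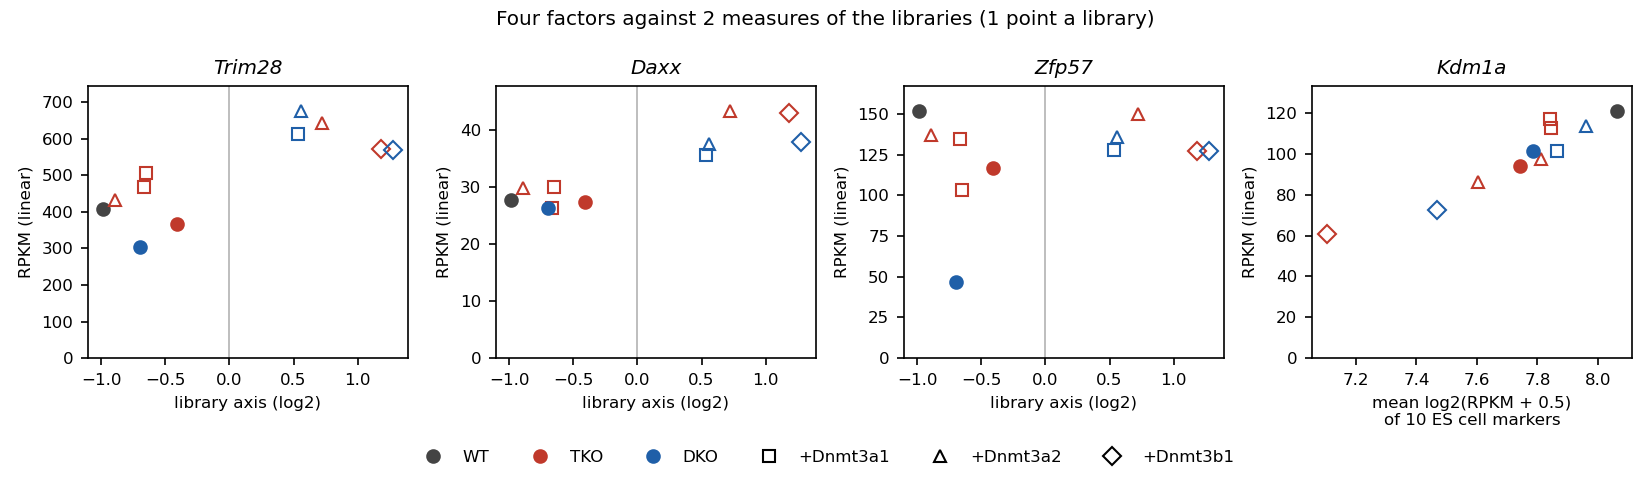
RPKM (vertical axes, linear) of Trim28, Daxx and Zfp57 against the library score (horizontal, labelled library axis, log2) and of Kdm1a against the mean log2(RPKM + 0.5) of 10 ES cell markers, 1 point per library, with colours and markers as in the plot of levels. The 5 libraries above 0 are the 5 highest for Trim28 and Daxx, Zfp57 is low in DKO alone, and Kdm1a and the ES cell markers are both lowest in the 2 Dnmt3b1 libraries.

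Between the TKO family, without Dnmt1, and the DKO family, with it, no member differed past the threshold. The count was 0 of 10 by limma, against 21.0% of all genes, with 1 member (Atrx) and 5354 genes at an unadjusted p under 0.05. Atrx averaged 36.0 RPKM in the 6 libraries of the TKO family and 30.7 in the 4 of the DKO family, a log2 difference of 0.20 ± 0.08 (adjusted p = 0.114). Zfp57 differed by 0.27 (adjusted p = 0.368), and the other 8 members by -0.15 (Cbx5) to 0.13 (Ehmt2). For every member the values of the 2 families overlapped, and the share of all genes without overlap was not counted. Another scaling moved the median of all genes here from 0.11 to -0.01 (quantile) or 0.01 (median ratio), and directions of the smaller differences depend on it.

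Kdm1a was the 1 member called in any of the 5 comparisons, and it was lower with Dnmt3b1 than with Dnmt3a. The 2 Dnmt3b1 libraries (60.7 and 72.7 RPKM) lay below all 6 Dnmt3a libraries (86.4 to 117 RPKM). The log2 difference was -0.67 ± 0.13 (limma adjusted p = 0.00963), in a comparison where 20.7% of all genes were called and 2 members and 5220 genes had an unadjusted p under 0.05. Non-overlap with Dnmt3b1 lower was seen in 15.3% of genes and, in either direction, in 34.6%. The call was lost without TKO+Dnmt3b1 (-0.57, adjusted p = 0.194), without DKO+Dnmt3b1 (-0.75, adjusted p = 0.0778) and with only the libraries above 0 (-0.51, adjusted p = 0.0833). The same 2 libraries were lowest in the ES cell marker sum and highest in fibroblast and macrophage markers, all 20 and 11 of 13 of which were called higher. Kdm1a followed the mean log2 level of the 10 ES cell markers over the 11 libraries (r = 0.96, n = 11, libraries that share lines and culture), and the part of cell composition in its difference was not tested. Zfp809 was higher with Dnmt3b1 by 0.44 ± 0.17 (adjusted p = 0.0970), and without TKO+Dnmt3a2 replicate 1 by 0.51 (adjusted p = 0.0456). The other 8 members differed by -0.23 (Cbx5) to 0.26 (Daxx).

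The wider silencing machinery, 61 genes in 6 lists, had 0 calls in TKO against WT and 0 in DKO against WT. The lists held HP1 proteins and H3K9 methyltransferases (8 genes), the HUSH complex and MORC proteins (6), H3.3 and CAF-1 chaperones (11), CoREST and NuRD (13), Trim28 partners and SUMO (14) and KRAB zinc fingers that bind retroelements or imprints (10), with Morc3 in 2 of them. Their median log2 difference was 0.06 in TKO and 0.01 in DKO, against 0.13 and 0.04 over all genes. The largest difference in TKO was that of Gm13251 (Zfp992), a KRAB zinc-finger gene, at 13.2 RPKM against 4.33 in WT (1.5, limma adjusted p = 0.118). Like Zfp809 it was at least 1.5 times above WT in all 10 mutant libraries (7.86 to 22.6 RPKM), as was Zfp600 (4.59 to 12.0 against 2.35). These were 2 of the 10 genes of that list, where 1.9% of the genes tested were that far above the 1 WT library. Gm13251 and Zfp600 belong to a family of near copies that may share reads. At the other end Zfp445, an imprint-binding zinc finger, was 0.50 lower in TKO, and Suv39h1, an H3K9 methyltransferase, 0.77 lower (adjusted p of 0.364 and 0.246). Within the other lists the most positive and most negative differences in TKO were 0.22 for Cbx1, 0.79 for Morc1 and -0.05 for Mphosph8, 0.91 for H3f3b and -0.38 for Rbbp4, 0.59 for Chd4 and -0.58 for Phf21a, and 0.54 for Smarcad1 and -0.14 for Hells, none of them called.

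With an enzyme put back, 3 of the 61 genes rose and 1 fell, 6.56% against 3.93% of all genes. The KRAB zinc-finger genes Zfp932 (0.64 ± 0.13, limma adjusted p = 0.0452), Zfp445 (0.64 ± 0.13, adjusted p = 0.0419) and Zfp600 (0.67 ± 0.15, adjusted p = 0.0473) rose, and Mta1, a NuRD subunit, fell by 0.50. These calls, and all others of this comparison, were lost with only the libraries below 0 on the library score. There 0 genes were called by limma and 1815 of 13600 had an unadjusted p under 0.05. That fit held 3 add-back libraries, all of TKO, so its smaller size alone could lose calls. Between the families 11 of the 61 were called, 18.0% against 21.0% of all genes, and 8 of the 11 were lower in the TKO family. The lower ones were the H3K9 methyltransferases Suv39h1 (-0.50), Suv39h2 (-0.38) and Ehmt1 (-0.31), Mta1 (-0.45), Rif1 (-0.56) and the zinc fingers Zfp932 (-0.67), Zfp445 (-0.38) and Zfp961 (-0.62). The higher ones were H3f3b (0.65), which encodes H3.3, the deacetylase Hdac1 (0.48) and Gm13251 (0.87). With Dnmt3b1 against Dnmt3a, 1 of the 61 rose and 2 fell, 4.92% against 20.7% of all genes. Mbd1 rose by 0.85 and H3f3a and the CAF-1 subunit Chaf1b each fell by 0.51, in the comparison where fibroblast and macrophage markers also rose.

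Genes known to be repressed by Trim28, Setdb1, Ehmt2 or Kdm1a in ES cells were mostly lower in the parents than in WT, without a call. Of 15 such genes 14 were tested. In TKO 11 of the 14 were lower and 3 higher than WT (median -1.19, all genes 0.13), in DKO also 11 and 3 (median -0.92, all genes 0.04), with 0 called by limma in either and 2447 and 1181 genes overall at an unadjusted p under 0.05. Zscan4d, a gene of the 2-cell-like state, had 5.94 RPKM in WT against 0.48 in TKO and 0.52 in DKO (adjusted p of 0.210 and 0.480). Dazl, a germline gene, was at 8.73, 42.2 and 18.7 RPKM (adjusted p of 0.160 and 0.686). With an enzyme put back 11 of the 14 were higher (median 1.46, all genes -0.01). Of the 14, 4 rose, Zfp352 (1.39), Zscan4d (2.64), Tdpoz4 (1.54) and Usp17lc (1.78). Zscan4d read 9.97, 8.48 and 39.3 RPKM in the DKO add-backs, where enzyme and side of the library score cannot be told apart. The TKO add-backs read 0.80 and 3.86 RPKM with Dnmt3a1, 0.85 and 1.62 with Dnmt3a2 and 3.95 with Dnmt3b1. With the side as a covariate 0 genes of the table were called by limma. Dazl fell by 1.85, in a comparison where 3.93% of all genes were called. In the parents Zfp352, Tdpoz4 and Usp17lc were near the floor, at 0.04 to 0.20 RPKM. Between the families Dazl (1.36) and Wfdc15a (1.51) were higher in TKO lines and Zscan4c (-2.10), Zscan4d (-1.99), Zscan4f (-1.75) and Tcstv3 (-1.43) lower, 6 of 14 where 21.0% of all genes were called. The lower genes were at similar levels in both parents, with Zscan4d at 0.48 RPKM in TKO and 0.52 in DKO. For each of them every DKO add-back library, all above 0 on the library score, was higher than every TKO add-back library. Their family differences thus came from the add-back libraries, and the part of Dnmt1 in them was not tested. With Dnmt3b1 against Dnmt3a 8 of the 14 rose, where 20.7% of all genes were called, from 1.35 (Usp17la) to 2.03 (Tdpoz4), among them Zfp352, Tcstv1, Tcstv3, Tdpoz3, Usp17lc and Dazl. The 20 fibroblast markers and 11 of 13 macrophage markers rose in the same comparison, and the part of cell composition was not tested. Calls over all genes went from 2943 to 75 without TKO+Dnmt3b1 and to 183 without DKO+Dnmt3b1. The Zscan4, Usp17l, Tcstv and Tdpoz genes have near copies that may share reads.

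Of 19 imprinted genes at control regions bound by Zfp57, 17 were tested. In TKO 16 of the 17 were above WT (median 0.86, all genes 0.13). H19 (3.03 ± 0.23, limma adjusted p = 0.0344) and Grb10 (2.21 ± 0.23, adjusted p = 0.0445) rose, 2 of 17 where 0.344% of all genes were called. With quantile scaling 0 genes of the table were called in TKO against WT, these 2 included, and 2245 had an unadjusted p under 0.05 by limma. Nnat alone was lower (-0.82, adjusted p = 0.189). In DKO, where Zfp57 mRNA was lowest, 13 of the 17 were above WT (median 0.34, all genes 0.04) and 0 were called. Fibroblast markers were also mostly above WT, 18 of 20 in TKO (median 0.49) and 18 of 20 in DKO (median 0.92), with 0 called. With an enzyme put back 9 were higher and 8 lower, and Nnat (1.09) and Mcts2 (0.94) rose, 2 of 17 where 3.93% of all genes were called. Between the families Plagl1 (0.85), Peg3 (1.59) and H19 (1.55) were higher in TKO lines and Impact (-0.53) lower, 4 of 17 where 21.0% of all genes were called. With Dnmt3b1 Gnas rose by 0.94, 1 of 17 where 20.7% were called, and all 20 fibroblast markers were called higher there. The part of cell composition in the differences of these imprinted genes was not tested.

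By their pattern over the 11 libraries, the genes most like Zfp809 (Pearson r of log2 values, n = 11) included Sars2 (0.94) and Usp31 (0.94). Those most like Zfp57 were Krt10 (0.89), Apip (0.88) and Zfp369 (0.87), and those most like Trim28 were Mettl3 (0.97), Ddx55 (0.96) and Prpf19 (0.95). Like Zfp57, Apip was lowest in DKO, at 5.16 RPKM against 9.26 to 13.4 elsewhere. Like Zfp809, Sars2 was lowest in WT, at 8.44 RPKM against 13.6 to 20.2 elsewhere. Libraries of 1 family share a line, so these points are not independent.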

How the data were processed

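PolyA RNA was made into TruSeq RNA v2 libraries, which keep no strand, per the labels' protocols. Tools named in the submitters' processing notes are STAR 2.4.0, bcl2fastq 1.8.4 and the build mm9; the counting tool is not given in the sources used here. The deposited values are RPKM per gene, computed by the authors, with 1 RefSeq transcript per gene. The table held 0 other per-sample columns. Groups came from the genotype given for each sample, and the columns were matched to samples by title. Genes that reached 1 RPKM in any library (14229) entered the test on log2(RPKM + 0.5) with limma 3.58.1 (R 4.3.3, eBayes with a trend), with Benjamini-Hochberg adjustment over all of them and a threshold of 0.05. The pseudocount makes differences of low genes smaller. WT comparisons used 9 group means over 11 libraries (2 residual degrees of freedom), so the spread of single libraries was taken from the 2 lines with replicates. The other 3 comparisons used 10 libraries and additive terms for family and for the enzyme put back (5 residual degrees of freedom). Depth was estimated as the total at which RPKM of transcripts up to 400 nt gave whole reads within 0.05 (86.7% to 91.5% of values). Scripts were tested on simulated data.

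The members and gene lists were chosen with earlier results of these data known. All members were named, and of each list the called genes and the largest differences of each sign in TKO against WT. For the 3 members with the largest SD the 3 genes of highest Pearson r were named, except 1 that is not reported here. Neighbouring and overlapping genes (Zfp599, Cers2 and the genes flanking Zfp57) were named after their values were seen. The library score used 7284 genes at 5 RPKM or more in every library, and it and its alternatives were added after seeing the data. Promoter windows were taken by symbol for 10 of 10 members from RefSeq (GRCm38.p6). The alternatives were another pseudocount of 0.1, no filter, quantile and median ratio scaling, chromosome medians removed, a replicate block, and leaving out libraries.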

Additional observations from a re-analysis of the deposited data

Results flagged for a closer look

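In 30 groups of 4 to 8 libraries (each member in the TKO family, the DKO family and the add-back libraries), 2 libraries lay far from the rest, where chance gives about 1 in 20 groups. Zfp57 in the DKO family was one, with DKO at 46.5 RPKM and the gap to the next library at 0.90 of the family's range. The other was Atf7ip in the add-back libraries, where TKO+Dnmt3a2 replicate 2 read 20.1 RPKM and the gap was 0.53 of the range. Atf7ip also moved in opposite directions in the 2 families, lower than TKO in 5 of 5 add-back libraries and higher than DKO in 3 of 3. The mean log2 difference of the DKO family exceeded that of the TKO family by 0.33, and this difference was not tested. In TKO the median gene of chromosome 6, where Atf7ip lies, was 0.48 above WT.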

How the results depend on the processing

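Members called numbered 0 in the WT comparisons and between the families under every alternative run. In TKO against WT the 49 called genes became 0 with quantile scaling, 12 with median ratio scaling, 81 with chromosome medians removed, 0 with the side of the library score as a covariate, 0 with only libraries below 0, and 0 to 66 with 1 library left out. In DKO against WT, 71 genes were called without the filter instead of 0. With an enzyme put back, the 559 called genes became 173 without the filter, 319 with chromosome medians removed, 2 without both Dnmt3b1 libraries, 0 with the covariate, 0 below 0, and 2 to 891 with 1 library left out. Members called were then 0 to 2. Between the families 2990 became 1812 without both Dnmt3b1 libraries, 1566 with the covariate, 22 above 0, and 652 to 3261 with 1 library left out. Below 0 the DKO family was 1 library, so no count is given. With Dnmt3b1, 2943 became 1617 with the covariate, 0 above 0 and 75 to 3353 with 1 library left out, and members called were 0 above 0 and 0 to 2 with 1 left out. Of the called genes the share higher was 28.4% with an enzyme put back (39.6% quantile, 39.3% median ratio), 68.3% in the TKO family (44.8%, 48.2%) and 65.3% with Dnmt3b1 (48.2%, 59.7%).

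The replicate numbers of TKO+Dnmt3a1 and TKO+Dnmt3a2 share only a number: their replicate differences correlated at 0.03 across genes. With a replicate block the calls were 307 in TKO, 60 in DKO, 1415 with an enzyme put back (2 members, Trim28 at 0.83 with adjusted p = 0.0271 and Daxx at 0.48 with adjusted p = 0.0452) and 1689 between the families. Under the block Daxx between the families was 0.046, and Dnmt3b1 against Dnmt3a was -0.087 for Trim28 and -0.0077 for Zfp57.

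Small differences changed sign. For an enzyme put back, Setdb1 was -0.23, Zfp809 -0.089, Atrx -0.049 and Kdm1a 0.062 with the covariate, and below 0 Setdb1 was -0.33, Zfp809 -0.20 and Kdm1a 0.17. Kdm1a was 0.10 without both Dnmt3b1 libraries, and Atf7ip was 0.16 with chromosome medians removed (-0.017 in TKO against WT). With 1 library left out, Setdb1 ran from -0.18 to 0.40, Atrx from -0.010 to 0.20 and Atf7ip from -0.21 to 0.10. Between the families the covariate gave 0.089 for Trim28, 0.097 for Setdb1, 0.075 for Zfp809 and 0.15 for Daxx. Below 0, where DKO is the 1 library of its family, they were 0.26, 0.36, 0.13 and 0.052, and Cbx5 was 0.14. Above 0 Zfp809 was 0.056, Daxx 0.19 and Atf7ip -0.0015. Atf7ip was -0.012, -0.075 and -0.091 with quantile scaling, median ratio scaling and chromosome medians removed. With 1 library left out, Setdb1 ran from -0.22 to 0.033, Zfp57 from -0.014 to 0.42, Zfp809 from -0.16 to 0.0065, Daxx from -0.13 to 0.044 and Atf7ip from -0.036 to 0.086. For Dnmt3b1 against Dnmt3a the covariate gave -0.20 for Trim28, -0.072 for Setdb1, -0.17 for Zfp57 and -0.012 for Atf7ip. Above 0 Trim28 was -0.15, Setdb1 -0.055 and Zfp57 -0.10. Median ratio scaling gave -0.024 for Trim28 and -0.047 for Zfp57, quantile scaling -0.0038 for Zfp57, and removing chromosome medians -0.045 for Atf7ip. With 1 library left out, Trim28 ran from -0.064 to 0.12 and Zfp57 from -0.15 to 0.19. The cause was not tested, except that leaving out libraries leaves fewer samples.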
